A study of Mus musculus with 8 samples.

Results

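The retinoic acid genes measured here are 9 genes for the synthesis, breakdown, binding, uptake and sensing of retinoic acid: *Aldh1a1*, *Aldh1a2*, *Aldh1a3*, *Cyp26a1*, *Cyp26b1*, *Crabp1*, *Crabp2*, *Stra6* and *Rarb*. They were taken by gene name from the array annotation and are represented by 11 of 41174 probes, or 9 of 27828 gene names. RNA came from dorsal pancreatic epithelia that were dissected by hand from e12.5 mouse embryos, and each sample was a pool from 3 embryos on 1 single-colour Agilent array. The 4 mutant (MUT) samples were Sox9fl/fl with Pdx1-Cre, so that both floxed *Sox9* alleles could recombine where *Pdx1* is active, which includes the pancreatic epithelium. The 4 wild-type (WT) samples were Sox9fl/fl littermates, which carry the same floxed alleles and are labelled wild-type. The floxed line was on a mixed FVB/N and C57Bl/6J background and the Cre line on C57Bl/6J. *Sox9* encodes a transcription factor of pancreatic progenitors, and the comparison asks which genes differ when it is deleted.

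Every mutant pool and no wild-type pool carried Cre, so the transgene and the *Sox9* deletion cannot be told apart. The study's description speaks of 3 biological replicates, whereas 4 arrays per genotype were available, and nothing says which pools were independent, so the p-values measure the spread between these arrays. Between 59.4% and 77.7% of the spots on an array lay well above background. Values are log2 processed signals minus the 75th percentile of the array, so that 0 stands for that percentile and 1 for a doubling of it. *Sox9* averaged 2.29 ± 0.51 in WT (SD, n = 4) and -0.41 ± 1.08 in MUT (SD, n = 4), and fell by 2.70 on the log2 scale (SE 0.517), with an adjusted p of 0.0252 in limma. The *Sox9* call was lost in the fits without WT 1 (0.067), WT 2 (0.0524), WT 4 (0.0689) or MUT 1 (0.0732), and with no filter on dim probes (0.0603). The Y-linked gene *Ddx3y* averaged -4.99 ± 2.99 in WT (SD, n = 4) and -0.76 ± 0.62 in MUT (SD, n = 4), with overlapping groups (adjusted p = 0.111 in limma). Embryo sex is not labelled, and its part in the differences below was not tested.

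Retinoic acid is made from vitamin A. Retinol is taken up into the cell, oxidised to retinaldehyde, and then oxidised to retinoic acid by retinaldehyde dehydrogenases, while enzymes of the CYP26 family break the product down. Retinoic acid binds nuclear receptors that sit on DNA as dimers with retinoid X receptors, and it is known in the early pancreas as a signal from mesoderm-derived tissue that acts on the growth of the dorsal bud and on endocrine differentiation. Several genes of the pathway, among them *Rarb*, *Cyp26a1* and *Crabp2*, are themselves induced by retinoic acid in many embryonic cells.

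The promoters of the 2 genes that passed the test, *Rarb* and *Cyp26b1*, are shown because receptor dimers are known to bind direct repeats of a 6-base half-site. That of *Cyp26a1*, the paralogue of *Cyp26b1*, is shown beside them, and its difference of -0.79 did not pass (adjusted p = 0.702 in limma). The sequences are the 250 bases before the start of each gene, from RefSeq on GRCm38.p6, on the strand of the gene and 5′ to 3′. They lie at chr14:16575477-16575726 (minus strand) for *Rarb*, at chr19:37697558-37697807 (plus strand) for *Cyp26a1* and at chr6:84593811-84594060 (minus strand) for *Cyp26b1*. Capitals mark a match to 2 copies of the half-site AGGTCA, in which the first base may also be G and the third also T, with a spacer of 5 bases (DR5).
Rarb: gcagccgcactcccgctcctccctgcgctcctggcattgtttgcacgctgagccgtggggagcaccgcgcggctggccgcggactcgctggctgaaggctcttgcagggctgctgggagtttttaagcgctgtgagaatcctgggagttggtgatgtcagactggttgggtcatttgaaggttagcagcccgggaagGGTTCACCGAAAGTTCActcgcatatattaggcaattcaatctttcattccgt
Cyp26a1: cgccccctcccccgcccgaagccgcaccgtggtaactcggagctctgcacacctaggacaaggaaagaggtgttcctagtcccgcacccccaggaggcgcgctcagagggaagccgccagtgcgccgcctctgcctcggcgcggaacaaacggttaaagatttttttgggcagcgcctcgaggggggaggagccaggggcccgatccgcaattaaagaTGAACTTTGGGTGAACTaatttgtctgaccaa
Cyp26b1: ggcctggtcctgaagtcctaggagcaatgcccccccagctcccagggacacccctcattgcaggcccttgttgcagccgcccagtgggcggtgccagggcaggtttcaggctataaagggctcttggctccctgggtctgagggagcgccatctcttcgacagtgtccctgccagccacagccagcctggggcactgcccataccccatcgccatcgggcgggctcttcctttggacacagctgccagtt

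The *Rarb* promoter held the match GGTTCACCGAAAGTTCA on the strand of the gene, from 53 to 37 bases before the start. In the *Cyp26a1* promoter the match was on the opposite strand, from 32 to 16 bases before the start, and reads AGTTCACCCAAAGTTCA there. No DR5 match lay in the *Cyp26b1* window, which says only that these letters are absent from it. Both strands were searched, and 29 of 32851 windows of this length (0.0883%), from 28 of 27025 genes, held a DR5 match. The same half-sites with a spacer of 2 bases lay in 57 windows (0.174%) and with a spacer of 1 base in 54 (0.164%), and in none of the 11 windows of retinoic acid genes. The promoter table held 7 of the 9 genes, all but *Aldh1a3* and *Crabp2*. A match is a description of the sequence and not a measured binding site.

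In the mutant samples 2 of the 9 genes rose, *Cyp26b1*, which breaks retinoic acid down, and *Rarb*, a retinoic acid receptor, and none fell. All 9 genes passed the filter on dim probes and were tested together with all 18506 genes in limma, with Benjamini-Hochberg adjustment and a threshold of 0.05. Over all genes, 287 (1.55%) rose and 707 (3.82%) fell. At an unadjusted p below 0.05, 4 of the 9 were higher (*Cyp26b1*, *Rarb*, *Aldh1a2* and *Crabp1*) and 0 lower, where 18.8% of all genes had such a p in either direction. The log2 difference was above 0 for 6 of the 9 genes, against 52.86% of all genes, and its median was 0.52 against 0.016. The mutant values lay wholly above the wild-type values for 3 genes, *Cyp26b1*, *Rarb* and *Crabp2*, and wholly below for 0, where 7.24% and 7.99% of all genes did so.

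**Figure D1:**
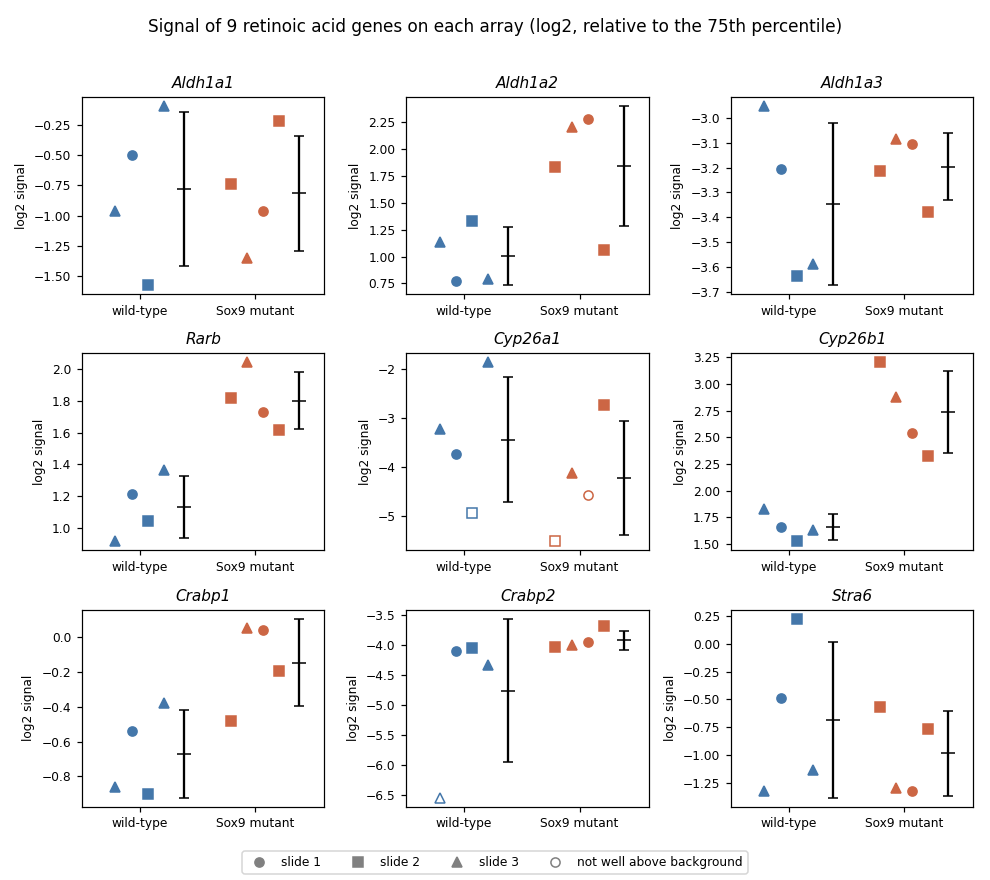
Signal of the 9 retinoic acid genes on each array, as log2 relative to the 75th percentile of the array, with the wild-type samples in blue and the Sox9 mutant samples in orange. Point shapes give the slide, open points were not well above background, and the bars are the mean ± SD of 4 samples. The groups separate for *Cyp26b1* and *Rarb*, and each panel has its own axis. For *Crabp2* they barely avoid overlap, with -4.05 as the highest wild-type and -4.04 as the lowest mutant value.

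*Cyp26b1* encodes a cytochrome P450 that hydroxylates retinoic acid for removal. Its probe, at chr6:84537616-84537675 on the minus strand (mm8), gave log2 signals of 1.82, 1.66, 1.52 and 1.63 on arrays WT 1 to WT 4. Arrays MUT 1 to MUT 4 gave 3.20, 2.88, 2.54 and 2.33. Every mutant sample was above every wild-type sample, and the mutant samples spread more widely than the wild-type samples, with replicate 4 nearest to them. The means were 1.66 ± 0.12 (SD, n = 4) and 2.73 ± 0.38 (SD, n = 4). The difference of 1.08 (SE 0.192, 95% confidence interval 0.63 to 1.52) is 2.11-fold, with an adjusted p of 0.0200 in limma and an exact two-sided permutation p of 0.0286, the smallest that the 70 assignments of 4 against 4 arrays can give. Of all genes tested, 99.29% had a difference no higher than this one. Since these are bulk samples, more cells of a type that makes the transcript and more transcript per cell cannot be told apart, nor can fewer cells and less RNA per cell for genes that were lower. The call was lost without WT 3 (adjusted p = 0.0578), WT 4 (0.0639) or MUT 2 (0.0645), and with no filter on dim probes (0.0534), all in limma.

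*Cyp26a1* encodes the other CYP26 enzyme on the list, and its transcript is a widely used readout of retinoic acid signalling. Its probe (chr19:37766220-37766279, plus strand, mm8) was well above background on 3 wild-type and 2 mutant arrays. WT 1 to WT 4 gave -3.23, -3.74, -4.95 and -1.88, and MUT 1 to MUT 4 gave -5.52, -4.12, -4.58 and -2.73. The groups overlapped, and in both genotypes replicate 4 had the highest signal. The difference was -0.79 (SE 0.740, 95% confidence interval -2.49 to 0.90, adjusted p = 0.702 in limma), an interval that holds a fall and a rise. Whether the 2 CYP26 genes differed from each other in their response was not tested.

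*Rarb* encodes retinoic acid receptor beta. Its main probe, at chr14:15224264-15224323 on the minus strand (mm8), was spotted 10 times on each array, and the log2 SD over these spots was between 0.0252 and 0.078. Averaged over the spots, WT 1 to WT 4 gave 0.91, 1.21, 1.04 and 1.36, and MUT 1 to MUT 4 gave 1.82, 2.04, 1.73 and 1.62. The groups did not overlap, and both groups spread more between arrays than the spots did within an array. The means were 1.13 ± 0.20 (SD, n = 4) and 1.80 ± 0.18 (SD, n = 4), and the difference of 0.67 (SE 0.142, 95% confidence interval 0.34 to 0.99) is 1.59-fold. The adjusted p was 0.0346 in limma, and the exact permutation p was 0.0286, again the smallest possible.

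The *Rarb* call was the less stable of the 2. Of the 8 fits that each left out 1 array, the gene stayed past the threshold only in the fit without mutant replicate 4 (adjusted p = 0.0432). In the other 7, adjusted p lay between 0.0567 (without wild-type replicate 4) and 0.098 (without mutant replicate 1), with 0.0780, 0.0701 and 0.0889 without wild-type replicates 1, 2 and 3, and 0.0927 and 0.0604 without mutant replicates 2 and 3. It was 0.0938 with each array scaled to its median and 0.093 with no filter on dim probes. The difference stayed positive in each of these fits. A second *Rarb* probe, annotated to an isoform and listed over 26709 bases at chr14:15341785-15368493 on the minus strand, was well above background on 1 wild-type and 2 mutant arrays and was not tested. Its mean log2 signal was -4.96 ± 1.01 in WT (SD, n = 4) and -4.93 ± 0.38 in MUT (SD, n = 4).

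*Aldh1a2* encodes the main retinaldehyde dehydrogenase of the early embryo, made mostly in mesoderm-derived tissue. Its probe (chr9:71094684-71094743, plus strand, mm8) gave 1.14, 0.77, 1.33 and 0.79 on WT 1 to WT 4. On MUT 1 to MUT 4 the log2 signals were 1.83, 2.20, 2.28 and 1.06. Mutant replicates 1 to 3 lay above all wild-type samples, and mutant replicate 4 lay within their range. The difference of 0.84 (SE 0.277, 95% confidence interval 0.20 to 1.47, 1.79-fold) missed the threshold (adjusted p = 0.134 in limma), and the exact permutation p was 0.0857. Without mutant replicate 4 the difference was 1.10 and passed (adjusted p = 0.0235 in limma). That sample also had the smallest loss of epithelial markers, described below.

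The other dehydrogenases had differences near 0. *Aldh1a1* (chr19:20710371-20710430, plus strand) gave -0.96, -0.50, -1.57 and -0.10 on WT 1 to WT 4 and -0.74, -1.35, -0.96 and -0.22 on MUT 1 to MUT 4. The 2 groups covered much the same range, with the highest signal of each in replicate 4, and the difference was -0.034 (SE 0.349, 95% confidence interval -0.83 to 0.77, adjusted p = 0.980 in limma). Its sign turned under other scalings, to 0.10 with each array scaled to its median. The mouse genome also holds the closely related *Aldh1a7*, and cross-hybridisation with its transcript was not tested.

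*Aldh1a3* (chr7:66269849-66269908, minus strand) lay between -3.64 and -2.95 in wild-type and between -3.38 and -3.09 in mutant samples, well above background on every array. The mutant range lay within the wild-type range. The difference was 0.15 (SE 0.173, 95% confidence interval -0.25 to 0.55, adjusted p = 0.775 in limma). A second *Aldh1a3* probe (chr7:66287971-66288030, minus strand) was well above background on 0 of 8 arrays and was not tested.

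*Crabp1* and *Crabp2* encode the cellular retinoic acid binding proteins, of which CRABP2 is known to carry retinoic acid to its receptors and CRABP1 to hold it in the cytoplasm. *Crabp1* (chr9:54566522-54566581, plus strand) gave -0.86, -0.54, -0.90 and -0.38 on WT 1 to WT 4 and -0.48, 0.053, 0.038 and -0.20 on MUT 1 to MUT 4. Mutant replicates 2, 3 and 4 lay above all wild-type samples, and mutant replicate 1 lay among them. The difference of 0.52 (SE 0.174, 95% confidence interval 0.12 to 0.92, 1.44-fold) did not pass (adjusted p = 0.136 in limma, exact permutation p = 0.0571).

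*Crabp2* (chr3:88034687-88034746, plus strand) gave -6.54, -4.10, -4.05 and -4.34 on WT 1 to WT 4 and -4.04, -4.00, -3.96 and -3.68 on MUT 1 to MUT 4. The groups did not overlap, but wild-type replicate 1 was not well above background and lay far below the others. The difference of 0.84 (SE 0.521, 95% confidence interval -0.36 to 2.03) did not pass (adjusted p = 0.480 in limma) although the exact permutation p was 0.0286. Without wild-type replicate 1 the difference was 0.24.

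*Stra6* encodes the membrane receptor that takes up retinol from its plasma carrier. Its probe, listed over 612 bases at chr9:57950709-57951320 on the plus strand, gave -1.32, -0.49, 0.23 and -1.14 on WT 1 to WT 4 and -0.57, -1.30, -1.32 and -0.76 on MUT 1 to MUT 4. The groups overlapped, with wild-type replicate 3 the highest of all. The difference was -0.31 (SE 0.352, 95% confidence interval -1.11 to 0.50, adjusted p = 0.777 in limma).

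The arrays lay on 3 slides, each with both genotypes: wild-type 2 and mutant 3 on slide 1, wild-type 3 and mutants 1 and 4 on slide 2, and wild-types 1 and 4 and mutant 2 on slide 3. Within slides 1, 2 and 3 the *Cyp26b1* difference was 0.88, 1.24 and 1.15 and that of *Rarb* 0.52, 0.67 and 0.90. *Crabp1* was also alike on the 3 slides, with 0.58, 0.56 and 0.67. The *Aldh1a2* difference was 1.51, 0.12 and 1.24, the low value coming from the slide that held mutant replicate 4. Signs differed between slides for *Aldh1a1* (-0.46, 1.10 and -0.82) and *Cyp26a1* (-0.85, 0.82 and -1.57). *Aldh1a3* had 0.10, 0.34 and 0.18, *Crabp2* 0.14, 0.19 and 1.43, and *Stra6* -0.83, -0.89 and -0.066. A slide held at most 2 arrays of a genotype, so these values were not tested.

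**Figure D2:**
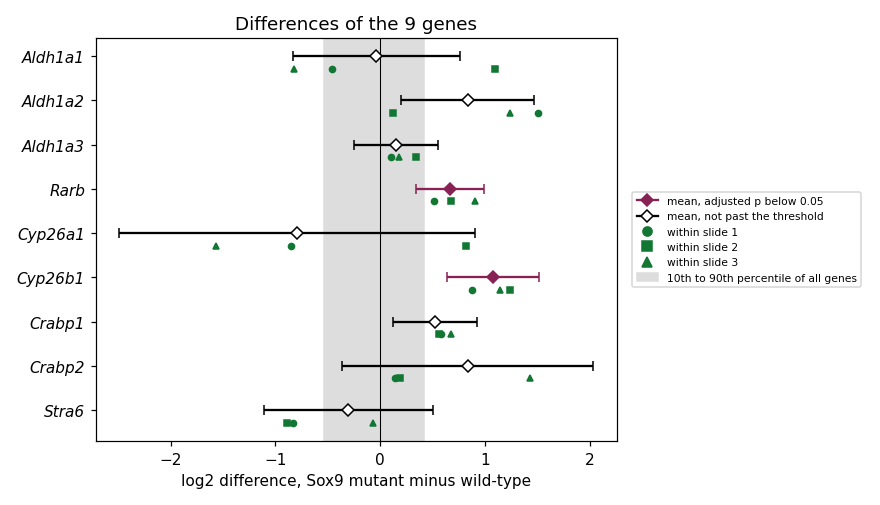
Log2 difference, Sox9 mutant minus wild-type, of each of the 9 genes, with its 95% confidence interval from limma, and below it the difference within each slide. Filled diamonds passed an adjusted p of 0.05. The grey band runs from the 10th to the 90th percentile of the differences of all genes tested (-0.54 to 0.42), and *Cyp26b1* and *Rarb* are the filled diamonds beyond it.

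**Figure D3:**
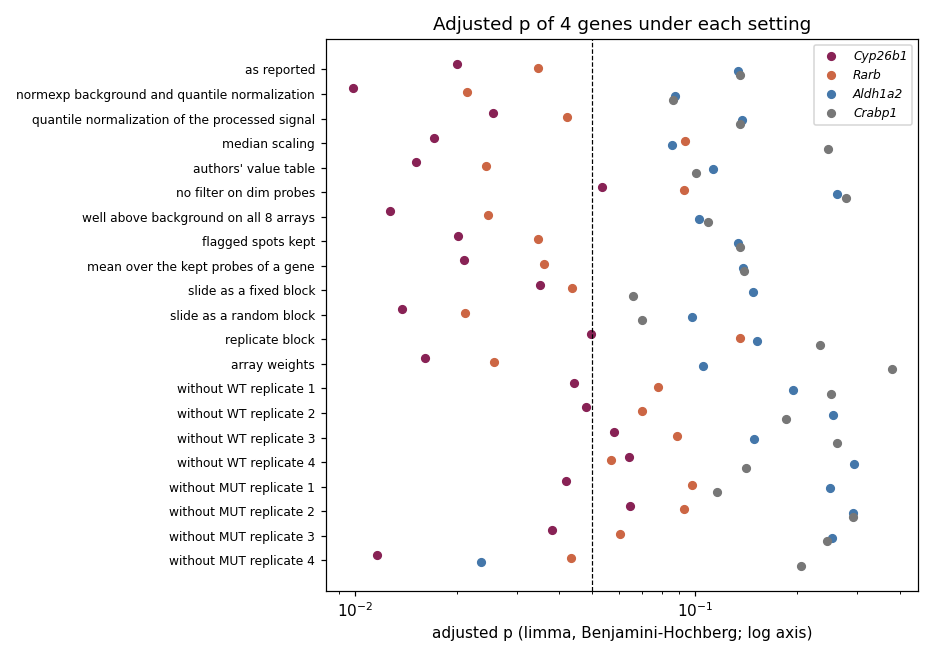
Adjusted p (log axis) of 4 genes as reported and under each of the other settings, with the threshold of 0.05 as a dashed line. *Cyp26b1* was left of the line in 16 of 20 other settings and *Rarb* in 10 of 20, *Aldh1a2* was left of it without mutant replicate 4, and *Crabp1* was right of it in all 20.

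Other genes of the pathway are described from lists drawn up with earlier results of these data known. Of 23 listed genes for retinoid uptake, storage and retinol oxidation, 16 were tested, 1 rose, 1 fell and 14 did not pass, with a median difference of 0.064 that turned to -0.056 with no filter on dim probes. *Dhrs3*, which reduces retinaldehyde back to retinol and is itself induced by retinoic acid, rose by 0.78 (SE 0.170, adjusted p = 0.0387 in limma). It lost the call with slide as a fixed block (0.0692), median scaling (0.0595), no filter on dim probes (0.0974) and the mean over a gene's probes (0.0502). The call was also lost with replicate number as a block (0.148) and in 6 of the 8 fits without 1 array. *Rbp4*, the plasma carrier of retinol, fell by 1.05 (SE 0.168, adjusted p = 0.0132 in limma). It lost the call with each array scaled to its median (0.0602) and with replicate number as a block (0.0649). *Rdh10*, which makes the retinaldehyde that the ALDH1A enzymes use, had a difference of 0.91 that did not pass (adjusted p = 0.0908). In the 20 other settings it passed in 4, with adjusted p between 0.0228 and 0.217 in limma.

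Of 18 listed receptors, co-regulators and other handling genes, 16 were tested and 0 passed in limma, with 1 lower and 0 higher at an unadjusted p below 0.05 and a median of 0.066. The median turned to -0.0048 with the mean over a gene's probes. The largest differences were in *Rxrg*, a retinoid X receptor (-0.97, adjusted p = 0.0674), and the orphan receptors *Nr2f1* (0.77, 0.448) and *Nr2f2* (0.50, 0.402). *Rxrg* passed in 5 of 20 other settings, with adjusted p between 0.0215 and 0.22 in limma.

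Of 24 listed genes that retinoic acid induces in embryonic or stem cells, 19 were tested, 1 reported gene rose and 17 did not pass. The log2 difference was above 0 for 17 of the 19, against 52.86% of all genes, with a median of 0.33 against 0.016. With the mean over a gene's probes it was above 0 for 15, with a median of 0.23, and 0 rose past the threshold. The list's mean level, centred on the 8 arrays, was -0.12 in MUT 4, below -0.089, -0.079 and 0.055 in WT 1 to WT 3. MUT 1 to MUT 3 (0.083, 0.080 and 0.38) lay above all wild-type samples. *Rarres2*, which encodes the chemoattractant chemerin, rose by 0.67 (SE 0.134, adjusted p = 0.0280 in limma), and lost the call in 6 of the 8 fits without 1 array. The *Rarres2* call was also lost with median scaling (0.079), no filter on dim probes (0.0784), the mean over its probes (0.0529) and replicate number as a block (0.114). *Hoxb6*, a homeobox gene, had 0.71 and did not pass (adjusted p = 0.0519). In the 20 other settings it passed in 8, with adjusted p between 0.0136 and 0.173 in limma.

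**Figure D4:**
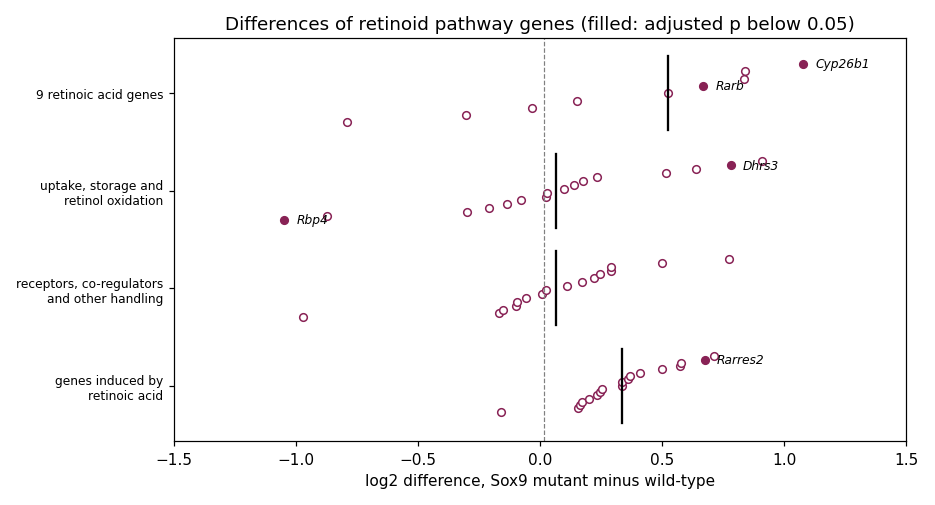
Log2 difference, Sox9 mutant minus wild-type, of the 9 retinoic acid genes and of the reported genes of the 3 pathway lists, 1 point a gene, with the median of each list's tested genes as a black bar. Filled, named points passed an adjusted p of 0.05, and the dashed line is the median of all genes (0.016). Most points of the list of genes induced by retinoic acid lie right of that line.

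Markers of the cell types that the dissected tissue could hold moved with genotype. Of 12 general epithelial markers 10 fell, with a median difference of -2.13 (*Krt8* -1.56, *Krt18* -0.98), and of 9 pancreatic epithelial markers 9 fell, with a median of -2.74 (*Cpa1* -2.10, *Foxa2* -1.97). The summed signal of the general epithelial list, in multiples of the 75th percentile of the array, was 109.9 to 152.2 in wild-type samples. In mutant samples it was 44.9 to 65.2, so general epithelial signal was present in both. The sum of the pancreatic epithelial list was 81.5 to 161.8 in wild-type and 13.3 to 40.3 in mutant samples. Of 12 mesenchymal markers 4 rose and 0 fell (median 0.63, *Col1a2* 0.67, *Col1a1* 0.47, the latter not past the threshold), and the summed signal was 295.9 to 370.1 in wild-type and 417.1 to 557.4 in mutant samples. The mesenchymal count was 1 without WT 1, WT 3, WT 4, MUT 1 or MUT 2, 2 without WT 2 or MUT 3, 4 without MUT 4, 2 with median scaling and 1 with no filter on dim probes. The *Cyp26b1* difference of 1.08 was above that median and the *Rarb* difference of 0.67 close to it. Differences of single markers ran from -0.094 to 0.97 in the mesenchymal list and from -0.14 to 1.29 in the mesothelial list. No test compared these values with *Cyp26b1* or *Rarb*.

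Markers of other cell types also differed. Of 8 mesothelial markers 2 rose (median 0.83, *Wt1* 0.998 and *Krt19* -0.14, neither past the threshold), and the sum was 5.92 to 7.03 in wild-type and 8.87 to 13.1 in mutant samples. Of 8 endothelial markers 2 rose (median 0.47, *Cldn5* 0.47 and *Kdr* 0.37, neither past the threshold, sums 20.4 to 23.5 and 27.3 to 35.96). Of 8 macrophage markers 4 rose (median 0.65, *Csf1r* 0.81, *C1qc* 0.64, sums 15.2 to 18.1 and 21.99 to 31.2). Of 5 liver markers 2 rose (median 2.23, *Afp* 2.23, *Ttr* -0.30, the latter not past the threshold, sums 12.7 to 19.7 and 42.4 to 111.6), and of 5 tested neural crest and glial markers 3 fell (median -0.99, *Erbb3* -2.36, *Ednrb* -0.11, the latter not past the threshold, sums 4.58 to 5.71 and 1.66 to 2.22). Among 4 neuronal markers (median -0.68, *Tubb3* -0.58, *Elavl4* -0.78, sums 2.92 to 5.37 and 2.14 to 4.70) and 6 erythroid markers (median 0.52, *Hbb-y* 0.14, *Hba-x* -0.27, sums 87.8 to 111.8 and 82.8 to 146), 0 passed in limma. At an unadjusted p below 0.05 there were 1 higher (*Stmn2*, 0.60) and 1 lower (*Phox2a*, -1.10) neuronal marker and 2 higher erythroid markers (*Epor*, 0.62, and *Klf1*, 0.96), all 4 named after their values were seen. These smaller counts also depended on single arrays. For mesothelium 0 rose without WT 1, WT 2, WT 3, MUT 1 or MUT 2, and 1 without WT 4. For endothelium 1 rose without MUT 4 and 0 without any other array or with median scaling. For macrophages 0 rose without WT 3, MUT 1 or MUT 2, 1 without WT 1, WT 2 or WT 4 or with median scaling, and 2 without MUT 3. With no filter on dim probes 0 rose in each of these 3 lists. For liver 1 rose without WT 1, WT 2, WT 4 or MUT 1, or with no filter, and of the neural crest and glial markers 2 or 3 fell without 1 array. The part of these cell types in the differences of the retinoic acid genes was not tested.

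Within the mutant group, replicate 4 had the least changed epithelial and mesenchymal markers and the lowest *Cyp26b1*, *Rarb* and *Aldh1a2* signals. Its mean epithelial marker level, centred on the 8 arrays, was -0.29, against -0.85, -1.33 and -1.18 in mutant replicates 1, 2 and 3. Its mean mesenchymal marker level was 0.11, against 0.21, 0.31 and 0.50. In the wild-type samples these means lay between 0.65 and 1.19 for epithelium and between -0.43 and -0.13 for mesenchyme. Among mutant replicates 1 to 3 the order of the *Cyp26b1* and *Rarb* signals was not that of the epithelial or mesenchymal list. The mesothelial means (0.64, 0.40 and 0.074) had the order of *Cyp26b1*, and the liver means (1.52, 2.27 and 0.086) that of *Rarb*. The erythroid and neural crest and glial means also had the *Rarb* order. The pancreatic epithelial, endothelial, macrophage and neuronal means had neither order. These orders were not tested. The lowest mutant *Crabp1* signal was in replicate 1.

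**Figure D5:**
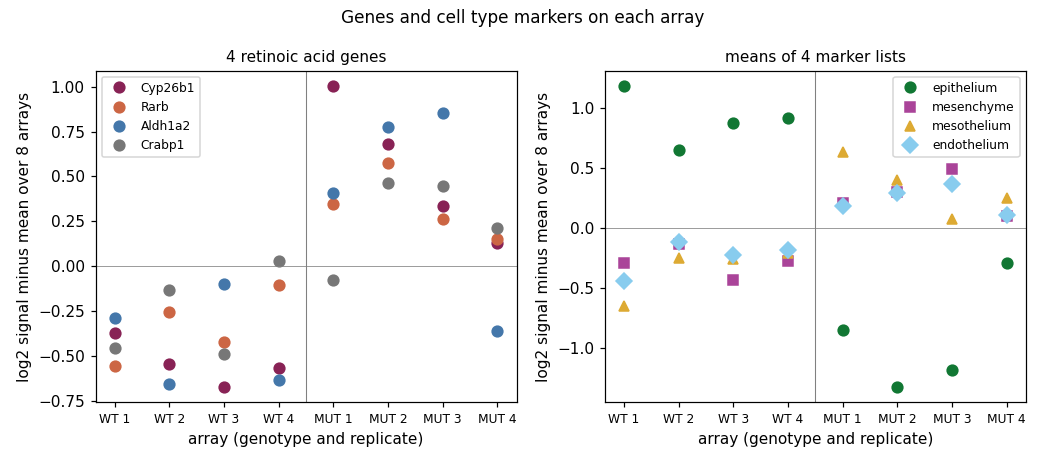
Left, log2 signal of 4 retinoic acid genes on each array, each gene centred on its mean over the 8 arrays; right, the mean centred log2 signal of 4 marker lists on the same arrays. Mutant replicate 4 lies nearest to the wild-type arrays for epithelial (-0.29) and mesenchymal markers (0.11), and has the lowest mutant values of *Cyp26b1*, *Rarb* and *Aldh1a2*.

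The genes whose pattern over the 8 arrays was most like that of each called gene were found by the root mean square difference of centred log2 signals, with no account of shared function. For *Cyp26b1* they were *Cyp2s1*, another cytochrome P450 (0.124), *Clca3a1* (0.129) and *Spp2* (0.131), whose own differences were 1.09, 0.91 and 1.17. For *Rarb* they were *Emp3*, a membrane protein (0.0562), *Klk8*, a secreted protease (0.0574), and *Efna3*, an ephrin (0.0671), with differences of 0.73, 0.61 and 0.76. That these genes were higher in the mutant samples follows from how they were chosen.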

How the data were processed

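Agilent Feature Extraction 9.5.3.1 wrote the deposited array files, per the file headers. Their processed signal is a linear intensity after background subtraction within the array, with no step between arrays. The deposited control type and outlier columns are flags (unit other). The authors' deposited value table gives linear intensity for 33067 features, with a median of 227 in every array. Its columns have equal distributions and are not centred, and its ranks follow the mean signal (rank correlation at least 0.999). The submitters' processing notes name limma, and the background step is not given in the sources used here. Probe positions are those of the files, on mm8, and exons were not assigned.

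Control spots (1639 of 45018 per array) and spots marked as outliers were left out. From each log2 signal the array's 75th percentile was subtracted, and repeated spots were averaged by probe. Probes well above background on at least 4 of 8 arrays were kept (27389 of 41174), with the brightest kept probe for each gene. RefSeq accessions named 23374 probes, a same-named probe 4500, and the files 13300. Genotypes were compared with limma 3.58.1 (R 4.3.3, the data.table package in version 1.17.8; lmFit and eBayes, two-sided, Benjamini-Hochberg adjustment over 18506 genes), tested on simulated data. Single genes were also compared with exact permutation tests. Promoter searches and plots used Python 3.11.15, pandas 2.3.3 and matplotlib 3.10.9. No pair of arrays held identical signals. The number of arrays, 4 a genotype, limits the precision.

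The genes and lists were chosen with earlier results of these data known. Genes named beside the 9 are *Sox9*, the genes of each pathway list past the threshold (filled up to 3 by the size of the difference), the 3 genes most like each called gene and the 2 brightest genes of each marker list. *Ddx3y* was added after its values were seen. Alternatives were other background and scaling steps, the deposited value table, filters, spot flags, probe averaging, slide and replicate blocks, array weights and leaving out each array. Same-numbered samples did not deviate together: the correlations of their deviations from the group means were -0.354, -0.295, -0.00485 and 0.0875. One tested gene of the list of genes induced by retinoic acid is not reported here.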

Additional observations from a re-analysis of the deposited data

Results flagged for a closer look

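Wild-type replicate 1 lay apart from the other wild-type samples in *Crabp2*, with a log2 signal of -6.54 against -4.34 to -4.05, a gap of 0.886 of the range, above the 95% critical value of Dixon's test for 4 samples. Its spot was not well above background, unlike those on the other 3 wild-type arrays and on all 4 mutant arrays. Of 18 groups tested (9 genes in 2 genotypes) this was the only one past the critical value, and chance gives about 1 in 20. Without this sample the *Crabp2* difference was 0.24 in place of 0.84.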

How the results depend on the processing

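The count of all genes past the threshold, 994 as reported, was 583 with each array scaled to its median, 419 with no filter on dim probes, 1536 with slide as a random block, 1697 with array weights and between 395 and 971 without 1 array. Of the 994, 28.9% were higher, against 43.4% after normexp and quantile normalization, 41.7% of 1256 in the deposited value table and 39.7% with probes well above background on all 8 arrays. Scaling to the median moved the median difference of all genes from 0.016 to 0.155. The count of retinoic acid genes past it, 2 as reported, was 1 with median scaling, 0 with no filter, and 0 to 3 without 1 array: 0 without WT 3, WT 4 or MUT 2, 3 without MUT 4 and 1 without each of the other arrays. The replicate numbers do not pair the samples by any label. With a replicate block 340 genes and 1 retinoic acid gene passed, and no same-numbered pair correlated best with each other. The *Aldh1a1* difference turned to 0.030 (normexp), 0.023 (quantile), 0.10 (median) and 0.026 (value table), and ran from -0.30 to 0.19 without 1 array. *Ednrb* turned to 0.077, 0.032 and 0.077 with normexp, median scaling and the value table, and *Hbb-y* ran from -0.016 to 0.25 without 1 array. With all 8 arrays required above background, *Cyp26a1* and *Crabp2* were not tested. The causes were not tested. Signals near background limit *Cyp26a1*, *Crabp2* and the second *Rarb* and *Aldh1a3* probes.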
